A study of Bos taurus with 8 samples.

Results

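Peroxiredoxins and glutathione peroxidases are the main enzymes that remove hydrogen peroxide and organic peroxides from cells, and 10 of their genes (PRDX1 to PRDX6 and GPX1 to GPX4) were followed in the rumen epithelium of calves on 2 diets. The genes were chosen by name: a gene was represented by the brightest probe that carried its symbol on the array. A probe was found for 9 of the 10 genes, 1 probe each, among 15008 probes for 14960 gene names in all. No probe carried the name or the RefSeq accession of GPX2, the intestinal form, and GPX2 was not analysed here. All 9 probes passed the filter on dim signals and were among the 10236 probes tested.

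The samples were rumen epithelium from rumen-fistulated Holstein bulls aged 7.4 ± 0.3 months, per the series text. On the control diet they received a high-grain ration with corn flakes, and on the WP diet wood kraft pulp, a cellulose-rich fibre, took the place of 50% of the corn flakes. Every bull was fed both diets for 14 days each, with no wash-out period between them. Of the 5 bulls, calves 21, 23, 24 and 25 have arrays here, 1 per diet. All animals were on a high-grain ration in both periods, and the sources used here do not give which diet a calf received first. The question was whether adding the pulp to a high-grain ration alters epithelial transcripts.

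Peroxiredoxins reduce peroxides with a reactive cysteine, which thioredoxin or, for PRDX6, glutathione then restores. Glutathione peroxidases 1 to 4 carry a selenocysteine in its place and draw electrons from glutathione. The enzymes divide the cell between them: PRDX1, PRDX2 and GPX1 work mainly in the cytosol, PRDX3 in mitochondria, PRDX4 in the endoplasmic reticulum, GPX3 outside the cell and GPX4 on lipid peroxides in membranes.

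Each probe is a 60-base oligonucleotide. The letters of 5 probes are shown in lower case, because PRDX6 and GPX4 had differences among the largest, because the PRDX1 and PRDX5 probes span breaks in the genome sequence, and because the letters of the GPX1 probe bear on what it measures.
PRDX6: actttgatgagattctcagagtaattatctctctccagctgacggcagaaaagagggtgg
GPX4: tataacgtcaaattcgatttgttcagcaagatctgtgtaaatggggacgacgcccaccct
PRDX1: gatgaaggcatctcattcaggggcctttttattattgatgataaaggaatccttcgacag
PRDX5: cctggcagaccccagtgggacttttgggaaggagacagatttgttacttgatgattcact
GPX1: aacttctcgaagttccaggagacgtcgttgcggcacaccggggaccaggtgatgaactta
GPX1, reverse complement: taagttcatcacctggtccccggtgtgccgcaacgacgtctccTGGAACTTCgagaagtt

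The capitals mark TGGAACTTC, which spells tryptophan, asparagine and phenylalanine, a run that glutathione peroxidases share towards their carboxyl end. The search was for TGGAANTTN on both strands, and it matched 0.773% of all probes as given and 0.58% on the opposite strand. In the GPX1 probe the match lies on the strand opposite to the one deposited. The GPX1 probe is thus, judged by the known protein, written as the complement of the coding strand; no GPX1 reference sequence was used here. The design file also places it on the minus strand of chromosome 22, 51325904 to 51325963, while the probe of RHOA, the neighbouring gene that lies on the same strand as GPX1 in human and mouse, is on the plus strand at 51323085 to 51323144. A probe in that orientation would not pair with labelled cRNA copied from the GPX1 mRNA. Its values are therefore given as those of the GPX1 probe and not as a level of the GPX1 transcript.

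The other probe positions, on assembly UMD 3.1 as the array design gives them, are as follows. PRDX6 lies on chromosome 16, 56397256 to 56397315, PRDX2 on chromosome 7, 13848181 to 13848240, and PRDX4 on chromosome X, 126551783 to 126551842. GPX4 and GPX3 lie on chromosome 7, at 45206739 to 45206798 and 64294632 to 64294688. The PRDX1 probe (chromosome 3, 101157510 to 101157838) and the PRDX5 probe (chromosome 29, 43232320 to 43232503) span 329 and 184 bases of genome with 60 letters, so their letters are not contiguous in the genome. The PRDX3 probe was placed on chromosome 8, 22222872 to 22222931, whereas RefSeq has PRDX3 on chromosome 26 (ARS-UCD2.0). Of 11669 probes named by accession and placed in both, 99.4% had the same chromosome. Whether a copy of PRDX3 on chromosome 8 adds to this probe's signal was not tested. Exon annotation of the probes was not analysed here.

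All 8 arrays were on 1 slide, in 2 rows of 4. The WP arrays of calves 21 and 23 and the control arrays of calves 24 and 25 were in row 1, and the partner array of each calf was in row 2. Since the order of the diets is not given, the 2 rows may coincide with the 2 feeding periods. A row difference therefore cannot be told apart from a period difference. An array had 9314 to 11990 probes well above background and no saturated spot, and the precision is limited by the number of arrays. The WP array of calf 24 had a negative control signal of 4.06, against 1.20 to 1.90 on the others. It also had 73 flagged outlier spots, against 2 to 6 on the others, and the most probes well above background, 11990. The part of this in the values of dim probes was not tested. Of the 12 marker genes listed for stratified epithelium, 11 were tested and well above background on every array, KRT5, KRT14 and TP63 among them, so the labelled tissue was present. Of 55 marker genes of other cell types, 36 were tested, beside 10236 of all 15008 probes. This count does not settle how pure the epithelium was. In tissue of mixed cells, fewer cells of a type and less RNA per cell cannot be told apart.

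PRDX6, GPX4 and GPX3 had the largest differences of the 9 genes, all with lower values on the WP diet in each of the 4 calves, but none passed the test. For GPX3, 1 of these values was not well above background. A level is written as the log2 of the processed signal minus the 75th percentile of its own array, so levels can be compared between arrays but not between probes. In limma, with calf as a block, 0 of the 9 members and 0 of 10236 probes (0%) reached an adjusted p of 0.05, and 0.658 was the smallest value of any probe. PRDX6 was the 1 member with an unadjusted p under 0.05 (limma, unadjusted p = 0.0381). In limma this became 0.167 without calf as a block, 0.0959 without calf 21, 0.0939 without calf 23 and 0.0812 without calf 25. It fell to 0.0065 in limma with normexp background correction, 0.0079 with median scaling and 0.022 without calf 24. The adjusted p of PRDX6 in limma was 0.346 or more under every alternative. Of all probes, 715 (6.99%) had an unadjusted p under 0.05, 179 of them lower (1.75%) and 536 higher (5.24%).

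**Figure D1:**
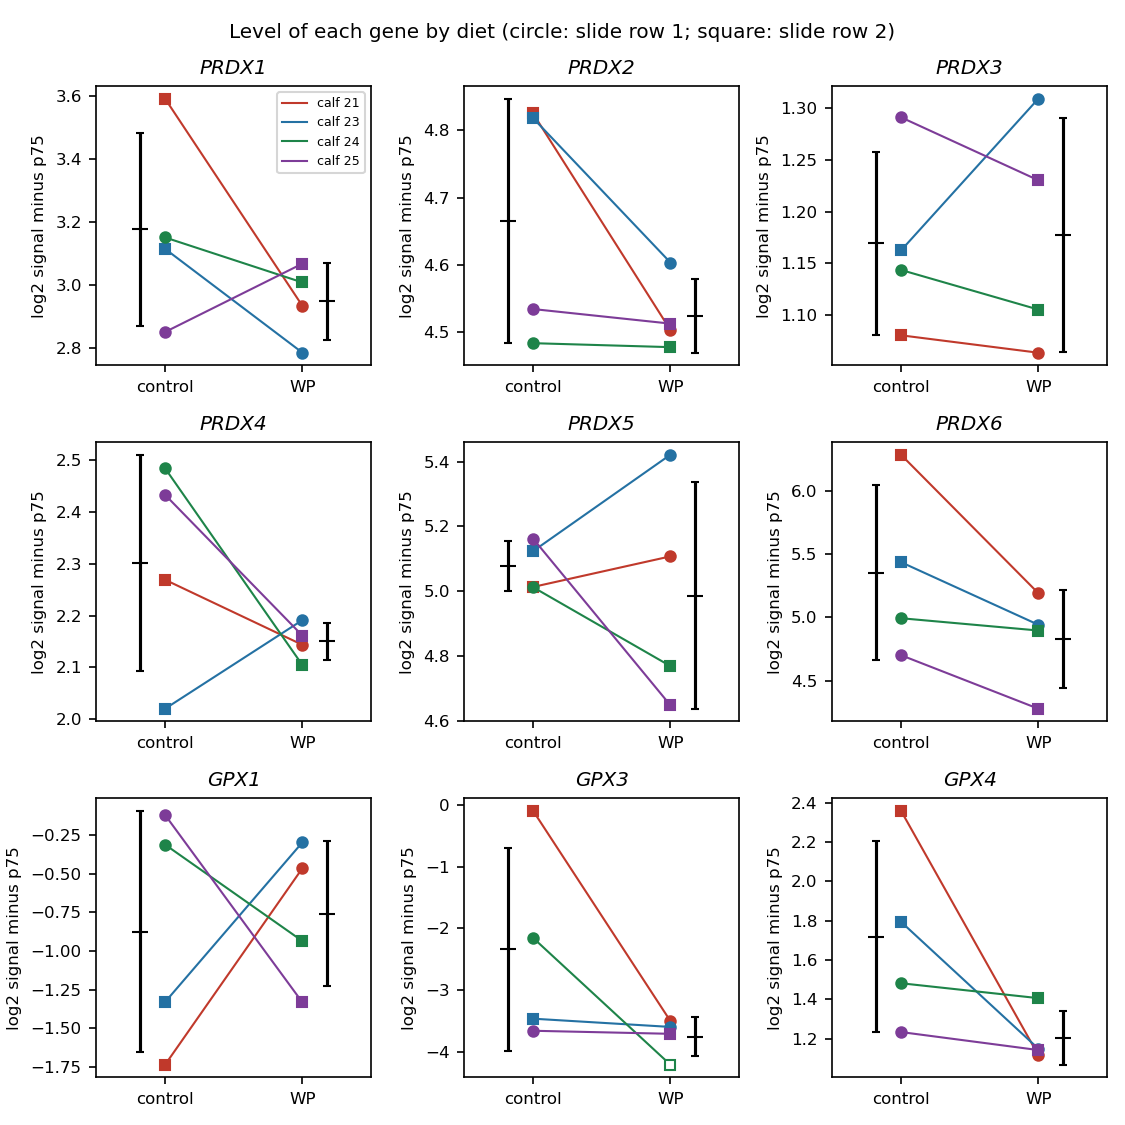
Level of each of the 9 genes (log2 processed signal minus the array's 75th percentile, vertical axes of different range) on the control and the WP diet. Lines join the arrays of 1 calf, circles are slide row 1 and squares row 2, an open symbol is not well above background, and black bars are the mean ± SD of 4 calves. The control array of calf 21 is the highest of all 8 for PRDX1, PRDX2, PRDX6, GPX3 and GPX4.

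PRDX6 is the 1-cysteine peroxiredoxin, which reduces phospholipid peroxides and also has a phospholipase activity. Its processed signal was 25195, 12468, 8985 and 5494 on the control arrays of calves 21, 23, 24 and 25, and 7272, 6194, 8489 and 4542 on their WP arrays. The scaled levels were 6.29, 5.44, 4.99 and 4.70 on control and 5.19, 4.94, 4.90 and 4.28 on WP. The calves kept the same order on both diets, from calf 21 down to calf 25, and the groups overlapped because the control levels of calves 24 and 25 lay within the WP range. The difference, WP minus control, was -0.53 ± 0.42 (SD, n = 4 calves), which is 1.44-fold more signal on control. Its 95% interval was -1.01 to -0.042 and its adjusted p was 0.658 in limma. By calf the difference was -1.10, -0.50, -0.097 and -0.42, so that calf 21 had the largest and calf 24 the smallest. Only 2.16% of the tested probes had a more negative mean difference. Without calf 21 it was -0.34. Between the arrays of slide row 1 it was 0.22 and between those of row 2 -1.28, each a comparison of 2 calves with 2 other calves.

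GPX4 is the selenoenzyme that reduces lipid hydroperoxides within membranes and is best known for blocking ferroptosis. Its signal was 1653, 998, 788 and 497 on the control arrays of calves 21, 23, 24 and 25 and 431, 447, 755 and 517 on the WP arrays. The levels were 2.36, 1.79, 1.48 and 1.23 on control and 1.12, 1.15, 1.41 and 1.14 on WP. The control levels were spread over more than a log2 unit and the WP levels lay close together. The difference was -0.51 ± 0.55 (SD, n = 4), 1.43 times as high on control, with a 95% interval of -1.11 to 0.086 and an adjusted p of 0.658 in limma. Calves 21 and 23 gave -1.24 and -0.64, whereas calves 24 and 25 gave -0.076 and -0.092. Without calf 21 it was -0.27. Within slide row 1 it was -0.22 and within row 2 -0.80. Both calves with the large differences had their control array in row 2 and their WP array in row 1, and over the 4 calves the GPX4 row difference (row 1 minus row 2) was -0.43 ± 0.64 (SD, n = 4). When slide row entered the fit, GPX4 and PRDX6 were the 2 members lower on WP at an unadjusted p under 0.05 (0.0229 and 0.0267 in limma), as were 3.41% of all probes, and both had an adjusted p of 0.488.

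GPX3 is the secreted glutathione peroxidase, found in plasma and extracellular fluid. Its signal was 302 on the control array of calf 21, 63.4 on that of calf 24, and 26.1 and 16.8 on those of calves 23 and 25. On the WP arrays it was 17.6, 16.7, 15.4 and 18 in calves 21, 23, 24 and 25, and the WP array of calf 24 was not well above background. GPX3 was thus dim on every array but the control arrays of calves 21 and 24. The difference was -1.41 ± 1.62 (SD, n = 4), and calf 21 gave -3.40, calf 24 -2.05, calf 23 -0.13 and calf 25 -0.049. The value of calf 24 has no measured WP side, because that probe was not well above background, and the mean was -1.20 without this calf. The SE was 0.62, the upper end of the 95% interval 0.18 and the adjusted p 0.658 in limma. The size depended on the setting: quantile scaling gave -2.06 and normexp background correction -0.63, and leaving out calf 21 gave -0.75.

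PRDX1 is the most widely expressed cytosolic peroxiredoxin and acts as a peroxide sensor as well as a scavenger. Its levels were 3.59, 3.12, 3.15 and 2.85 on control and 2.93, 2.79, 3.01 and 3.07 on WP in calves 21, 23, 24 and 25. It was lower on WP in 3 calves and higher in calf 25. The difference was -0.23 ± 0.36 (SD, n = 4; adjusted p = 0.687 in limma), with a 95% interval of -0.67 to 0.22. Without calf 21 it was -0.085, the other calves giving -0.33, -0.14 and 0.22.

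PRDX2 is a cytosolic peroxiredoxin that is also abundant in red blood cells. Its levels were 4.82 and 4.82 on the control arrays of calves 21 and 23, 4.48 and 4.53 on those of calves 24 and 25, and 4.50, 4.60, 4.48 and 4.51 on the WP arrays of calves 21, 23, 24 and 25. The control arrays of calves 21 and 23 were high and the other 6 arrays lay close together. The difference was -0.14 ± 0.15 (SD, n = 4; adjusted p = 0.717 in limma), made up of -0.32 and -0.21 for calves 21 and 23 but only -0.0059 and -0.022 for the other 2 calves. Both high arrays were in slide row 2, and within row 1 the difference was 0.044. Without calf 21 it was -0.081. Of the 7 red cell markers with a probe, 3 were tested, and their summed signal was 75.5 to 156 on control and 115 to 188 on WP arrays, in units of each array's 75th percentile. CA1, carbonic anhydrase 1, made up most of that sum, while HBA, hemoglobin alpha, had levels of 2.65, 2.92, 2.67 and 3.06 on the control arrays of calves 21, 23, 24 and 25 and so was not high on the array of calf 21. Their part in the PRDX2 values was not tested.

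PRDX4, the peroxiredoxin of the endoplasmic reticulum, takes up peroxide made during protein folding. Its levels were 2.27, 2.02, 2.48 and 2.43 on control and 2.14, 2.19, 2.10 and 2.16 on WP. The 4 WP arrays lay closer together than the control arrays, and calf 23 went against the other calves. The difference was -0.15 ± 0.24 (SD, n = 4; adjusted p = 0.734 in limma), -0.29 within slide row 1 and -0.012 within row 2. Without calf 24 it was -0.075.

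PRDX5 is an atypical 2-cysteine peroxiredoxin found in mitochondria, peroxisomes and cytosol. Its levels were 5.01, 5.12, 5.01 and 5.16 on control and 5.11, 5.42, 4.77 and 4.65 on WP. The control arrays lay close together while the WP arrays split, with calves 21 and 23 high and calves 24 and 25 low. The difference was -0.091 ± 0.36 (SD, n = 4; adjusted p = 0.870 in limma), and the within-calf values, 0.094, 0.30, -0.24 and -0.51, were positive where the WP array was in row 1 and negative where it was in row 2. The mean turned positive, at 0.18 within slide row 1 and 0.049 without calf 25.

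PRDX3, the mitochondrial peroxiredoxin, varied least of the 9 probes. Its levels ran from 1.08 to 1.29 on control and from 1.06 to 1.31 on WP, and the highest array was 1.19 times the lowest. The difference was 0.0077 ± 0.095 (SD, n = 4), with a 95% interval of -0.28 to 0.30 and an adjusted p of 0.987 in limma. A difference of up to these bounds is within what the arrays allow.

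The GPX1 probe was well above background on all 8 arrays, and its level followed the row of the slide in every calf. Its signal was 144 and 164 on the WP arrays of calves 21 and 23 and 227 and 194 on the control arrays of calves 24 and 25, all in row 1. In row 2 it was 96.8 and 114 on the control arrays of calves 21 and 23 and 149 and 92.9 on the WP arrays of calves 24 and 25. After scaling, every row 1 level (-0.46, -0.30, -0.31 and -0.12) lay above every row 2 level (-1.74, -1.33, -0.94 and -1.33). The diet difference was 1.27, 1.03, -0.62 and -1.21 in calves 21, 23, 24 and 25, with a mean of 0.12 ± 1.22 (SD, n = 4; adjusted p = 0.942 in limma). The difference between rows within a calf, row 1 minus row 2, was 1.04 ± 0.29 (SD, n = 4), with an adjusted p of 0.255 over all probes in limma. No probe of 10236 (0%) passed the adjusted threshold for slide row.

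**Figure D2:**
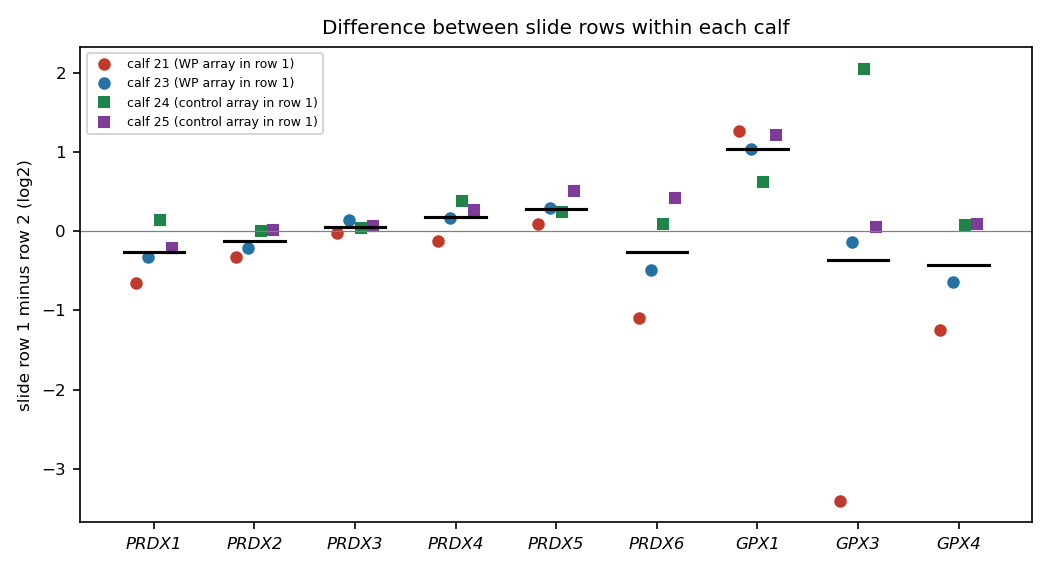
Difference between the 2 slide rows within each calf (row 1 minus row 2, log2) for the 9 genes. Circles are calves with the WP array in row 1, squares are calves with the control array in row 1, and black lines are the mean of 4 calves. The GPX1 probe is above 0.6 in all 4 calves and the PRDX5 probe is above 0 in all 4.

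GPX1 and PRDX5 were the 2 members with a higher level in row 1 in 4 of 4 calves, which 10.6% of all tested probes showed, and no member was lower in row 1 in 4 of 4, which 10.4% showed. In limma, GPX1 was the 1 member higher in row 1 at an unadjusted p under 0.05, beside 5.6% of probes, and GPX4 the 1 member lower, beside 7.3% of probes. For PRDX5 the row difference was 0.29 ± 0.17 (SD, n = 4; adjusted p = 0.411 in limma). Row and diet are not the same split, since each diet had 2 arrays in each row, and the mean diet difference of a member does not change when row enters the fit. Whether row and feeding period are the same split is not known.

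**Figure D3:**
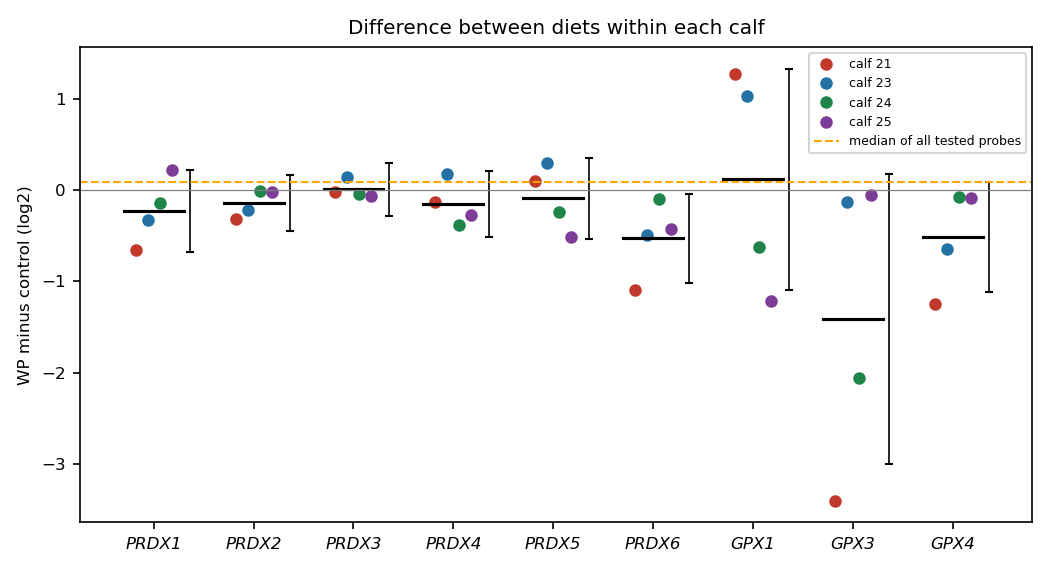
Difference between the diets within each calf (WP minus control, log2) for the 9 genes. Points are the 4 calves, black lines their mean, thin bars the 95% interval of the limma fit, and the dashed line the median of all tested probes at 0.087. PRDX2, PRDX6, GPX3 and GPX4 are below 0 in all 4 calves, PRDX2 by less than 0.03 in calves 24 and 25.

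Over the 9 genes, with the GPX1 probe included, 7 had a lower mean value on the WP diet, against 35.6% of all probes tested. The median difference of the 9 was -0.15, beside 0.087 over all tested probes. The 2 with a positive mean were PRDX3, at 0.0077, and the GPX1 probe, at 0.12. Both means turned negative with median scaling and within slide row 1. These 2 probes are in doubt by position or strand, and the part of this in their sign was not tested. PRDX2, PRDX6, GPX3 and GPX4 were lower in 4 of 4 calves, a pattern that 5.39% of tested probes showed. Some of these differences were close to 0, at -0.0059 and -0.022 for PRDX2 in calves 24 and 25 and -0.049 for GPX3 in calf 25. Before scaling, the signal was higher on WP for PRDX2 in calves 24 and 25 and for GPX3 and GPX4 in calf 25. For 0 of the 9 did every WP array lie below every control array, as it did for 1.19% of probes, and for 0 did every WP array lie above, as it did for 3.65%. The members' median was -0.32, -0.13, -0.14 and -0.092 in calves 21, 23, 24 and 25, where the median of all probes was 0.12, 0.028, 0.14 and -0.00024. In calf 24 all 9 members were lower, beside 35.9% of tested probes, and in calf 23 only 5, beside 46.5%.

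The split of all probes by direction depended on the scaling, and the members are read against it. Of the probes at an unadjusted p under 0.05, 25.0% were lower with the 75th percentile, 63.6% with quantile scaling and 69.9% with median scaling, which moved the median of all probes from 0.087 to -0.015 and -0.15. The number of members with a lower mean was 7, 7 and 9 of 9 under these scalings, beside 35.6%, 52.5% and 70.5% of all tested probes. Of the members, 8, 7 and 8 lay below the median of all probes.

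**Figure D4:**
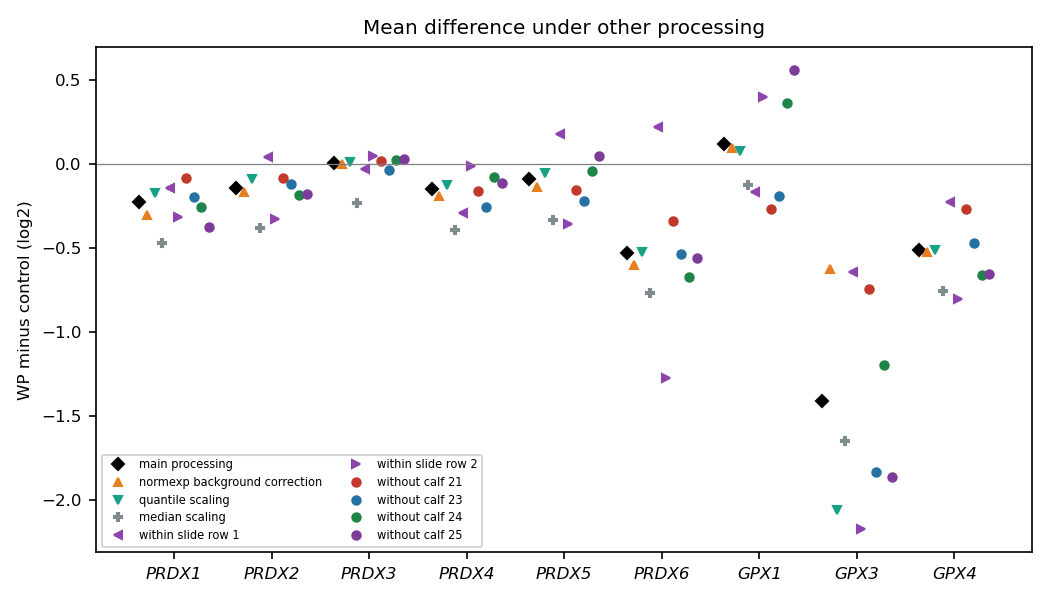
Mean difference between the diets (WP minus control, log2) of each gene under the main processing and 9 alternatives. PRDX1, PRDX4, GPX3 and GPX4 stay below 0 under every alternative drawn, PRDX6 is above 0 within slide row 1 alone, and GPX1 lies on both sides of 0.

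The control array of calf 21 stood apart for this family. It was the highest of the 8 arrays for 5 of the 9 genes (PRDX1, PRDX2, PRDX6, GPX3 and GPX4), as it was for 12.7% of all tested probes. In 7 of 8 lists of markers of other cell types, the summed signal was highest on this array among the 4 control arrays. The share of all probes with that pattern was not analysed here. A WP array was higher still for fibroblasts (42.7 against 39.0), smooth muscle (20.8 against 18.3), red cells (188 against 156) and T cells (1.08 against 0.919). No WP array was higher for the macrophage and dendritic cell, neutrophil, and B and plasma cell lists. Not every gene of these lists was highest there. The red cell sum rested on CA1, while HBA was 2.65 there, below the other controls. In the smooth muscle list MYLK (3.27) was the highest of the controls there and MYH11 (-6.26) the lowest. The macrophage and dendritic cell sum was 8.61, with 3.19 the lowest control and a WP range of 3.01 to 6.07. AIF1 (2.05) and CSF1R (1.69) were the highest of the controls there, but CD14 (-0.59) and CD68 (-0.78) were not. The neutrophil sum was 691 there, with 421 the lowest control, but this rested on S100A8, a calprotectin subunit that epithelium can also express (level 8.44, against 5.92 to 6.46 on the other controls). S100A12 was 8.42 there, below the 8.83 and 8.73 of calves 23 and 25, and CSF3R was -4.56, close to the other controls. Of these 2 lists, 3 of 7 neutrophil and 4 of 7 macrophage genes were tested, and CXCR2, MPO, CD163 and ITGAM were not above background on enough arrays. The epithelial sum was lowest there among the controls, at 539 against up to 645, while the WP arrays ran from 460 to 693. The part of these cells in the PRDX6, GPX4 and GPX3 values was not tested; without this calf the 3 differences were -0.34, -0.27 and -0.75.

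The levels of PRDX1, PRDX2, PRDX6 and GPX3 each ran with that of GPX4 over the 8 arrays, which share 4 calves and 1 scaling. The Pearson correlation of GPX4 was 0.90 with PRDX1, 0.88 with PRDX6, 0.82 with GPX3 and 0.81 with PRDX2. Without the control array of calf 21 these were 0.65, 0.60, 0.26 and 0.66 over 7 arrays. PRDX2 with PRDX6 gave 0.78 and 0.57. The GPX1 probe ran against PRDX1 (-0.77, and -0.59 without that array), and PRDX3 against PRDX1 (-0.59 and -0.53).

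The genes whose levels followed the members most closely were sought among 8505 genes that were well above background on all 8 arrays. PRDX6 was closest to TALDO1, the transaldolase of the pentose phosphate pathway (r = 0.97 over 8 arrays, 0.91 without the control array of calf 21), and GPX4 to CRYAB, a small heat shock protein (0.98 and 0.92). PRDX1 was closest to SRA1 (0.97 and 0.89) and PRDX3 to PIGW (0.94 and 0.93). PRDX4 was closest to PRMT1, an arginine methyltransferase (0.96 and 0.96), PRDX5 to GDI2 (0.97 and 0.97) and the GPX1 probe to NTRK2, a neurotrophin receptor (0.96 and 0.96). These values describe 8 arrays and were picked as the highest of many.

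The partners of these enzymes were evenly split in sign, though their median difference lay below that of all tested probes. In all, 64 of 87 related genes in 8 lists were tested. On the WP diet 32 were lower and 32 higher, beside 35.6% of all probes lower, and the median difference was -0.0017, beside 0.087. None of the 64 passed the adjusted threshold (0% of all probes). In limma 3 were lower at an unadjusted p under 0.05, beside 1.75% of all probes, and 1 was higher, beside 5.24%.

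The list of thioredoxin, which recharges peroxiredoxins, and of genes around it had 3 of 10 tested members lower, with a median of 0.080. TXNL1, a thioredoxin-like protein of the proteasome, was lower in 4 of 4 calves, as were 5.39% of all tested probes. Its highest WP level (0.933) lay below its lowest control level (0.961), so the groups did not overlap, as in 1.19% of probes. TXNL1 gave -0.31 ± 0.16 and SESN1, a sestrin, 0.38 ± 0.48 (SD, n = 4, adjusted p = 0.658 and 0.660 in limma). Glutathione supply had 9 of 13 lower, with a median of -0.089. The glutaredoxins GLRX and GLRX2 gave -0.32 ± 0.41 and -0.18 ± 0.13 (SD, n = 4; adjusted p = 0.666 and 0.669 in limma). For GLRX the difference was 0.051 within slide row 1 and -0.14 without calf 21, and for SESN1 it was 0.23 without calf 21.

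Of the other glutathione peroxidases only GPX7, an enzyme of the endoplasmic reticulum, was tested, while GPX5, GPX6 and GPX8 did not pass the filter. GPX7 was higher on WP by 0.81, 1.56 and 1.46 in calves 23, 24 and 25 and lower by -1.20 in calf 21, with a mean of 0.66 ± 1.28 (SD, n = 4; adjusted p = 0.685 in limma). Without calf 21 it was 1.28. Superoxide dismutases, their chaperone and catalase, which make and remove hydrogen peroxide, had 1 of 4 lower. CCS, the copper chaperone of SOD1, gave 0.28 ± 0.30 and SOD2, the mitochondrial dismutase, -0.096 ± 0.29 (SD, n = 4; adjusted p = 0.659 and 0.841 in limma), and CCS was 0.17 without calf 21. SOD2 was -0.0053 without calf 25 and -0.24 without calf 23.

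Genes of hydrogen peroxide production had 8 of 11 lower, with a median of -0.12. DUOXA2, the maturation factor of the dual oxidase DUOX2, had signals of 565, 144, 186 and 136 on the control arrays of calves 21, 23, 24 and 25 and 28.6, 65.1, 56.1 and 51.0 on WP. The groups did not overlap, as in 1.19% of probes, and the difference was -1.89 ± 1.25 (SD, n = 4; adjusted p = 0.658 in limma), or -1.31 without calf 21. DUOX2, which releases hydrogen peroxide at the epithelial surface, gave -0.52 ± 0.26 (SD, n = 4; adjusted p = 0.658), and -0.11 with normexp background correction.

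The list of selenoproteins and their synthesis, on which the glutathione peroxidases depend, had 6 of 13 lower, with a median of 0.026. SCLY, the selenocysteine lyase, gave 0.26 ± 0.40 and MSRB1, a selenoprotein reductase, 0.16 ± 0.40 (SD, n = 4; adjusted p = 0.678 and 0.778 in limma), where SCLY was 0.15 without calf 21. MSRB1 was -0.079 with median scaling, -0.37 within slide row 2 and -0.024 without calf 21. The list of regulators of the peroxide response, which also holds the enzymes HMOX1 and NQO1, had 2 of 7 lower, with a median of 0.0088. HMOX1, heme oxygenase 1, was lower by -2.79 and -1.49 in calves 21 and 23 and by -0.10 in calf 25, but higher by 0.70 in calf 24, with a mean of -0.92 ± 1.54 (SD, n = 4; adjusted p = 0.669 in limma). Without calf 21 HMOX1 was -0.30. NFE2L2, the transcription factor NRF2, gave 0.17 ± 0.16 (adjusted p = 0.685) and -0.075 with median scaling. In the lipid peroxidation and iron list 3 of 5 were lower, with a median of -0.0053. FTH1, the ferritin heavy chain, gave 0.15 ± 0.22 and TFRC, the transferrin receptor, -0.17 ± 0.36 (SD, n = 4; adjusted p = 0.737 and 0.755 in limma). FTH1 was -0.070 with quantile scaling, -0.096 with median scaling and -0.048 within slide row 2. TFRC was 0.16 within slide row 1, 0.026 with normexp background correction and -0.0020 without calf 24.

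**Figure D5:**
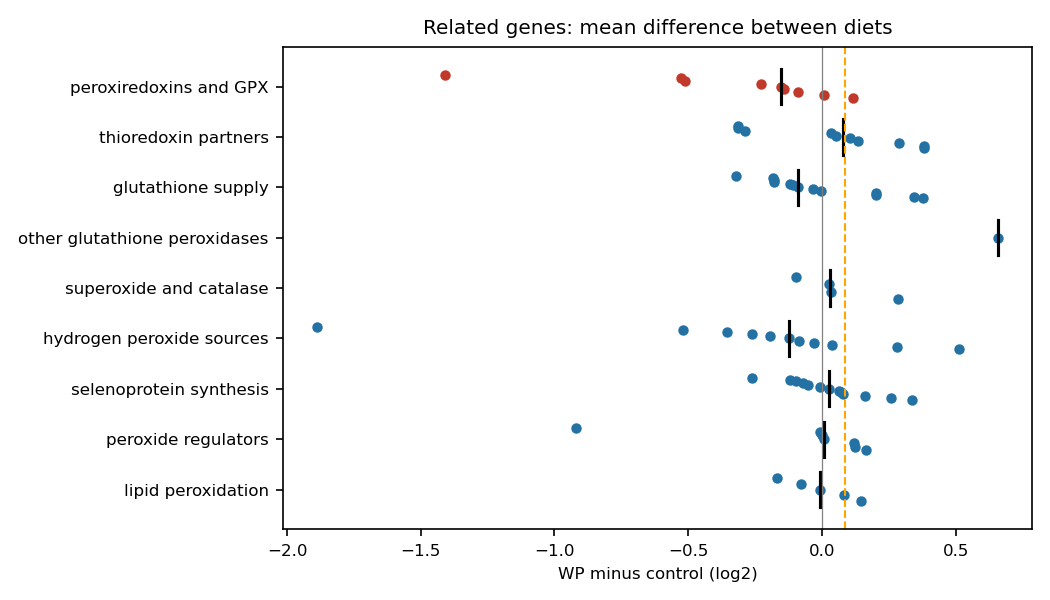
Mean difference between the diets (WP minus control, log2) of the 9 peroxiredoxin and glutathione peroxidase genes (top row) and of 64 related genes in 8 lists. Points are genes, black lines the median of a list, and the dashed line the median of all tested probes at 0.087. The top row has a median of -0.15 and the related lists lie on both sides of 0.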

How the data were processed

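Cy3-labelled material came from 500 ng of RNA, per the labels' protocols. Spot intensity was deposited as scanner output, where the processed signal is already corrected for background by Agilent Feature Extraction (version 11.0.1.1 in the file headers, 9.5 in the submitters' processing notes). The deposited table of log2 values by the authors matched the scanner's processed signal on a log2 scale, shifted by 1 constant per array (7.63 to 8.33, column medians -3.07 to -2.26); it is not centred by gene and served as an alternative.

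The 536 control spots and 97 spot values with an outlier flag were left out, spots of a probe were averaged, and each array's 75th percentile was subtracted. Probes that were well above background on 4 or more of the 8 arrays entered a two-sided limma fit (version 3.58.1, R 4.3.3; lmFit, then eBayes; Benjamini-Hochberg over 10236 probes; threshold 0.05). Calf was a block, since both diets were fed to the same animals; the 2 arrays of an animal, each taken as deviation from its diet mean, correlated by 0.0084, 0.20, 0.060 and 0.047. An exact sign-flip test over 4 calves cannot give a p under 0.125 and was not used. An SD beside a difference is taken over the calves' own differences. The fit was tested on simulated data.

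Names were updated through RefSeq (ARS-UCD2.0): an accession named 11682 probes, a symbol 2676 and a former symbol 36, and 614 stayed as on the array. The members and the gene lists were chosen with earlier results of these data known. From each list the 2 genes of smallest unadjusted p were named, and for each member above background on all arrays the gene of highest correlation; that of PRDX2 is not reported here.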

Additional observations from a re-analysis of the deposited data

Results flagged for a closer look

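The GPX4 level of 1.41 on the WP array of calf 24 lay apart from the other 3 WP arrays, which were between 1.12 and 1.15. The gap was 0.887 of the group's range. Chance alone sets about 1 in 20 such groups apart, and 27 groups were examined. On the same array the control probes against the viral E1A sequence had a median processed signal of 40.7, against 1.36 to 1.97 on the other arrays.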

How the results depend on the processing

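Over all alternatives 0 probes passed the adjusted threshold. PRDX1, PRDX4, GPX3 and GPX4 kept a negative difference under every alternative run. Within slide row 1 the sign turned for PRDX6 (0.22), PRDX5 (0.18), PRDX2 (0.044), PRDX3 (-0.031) and GPX1 (-0.16). With median scaling it turned for PRDX3 (-0.23) and GPX1 (-0.12), and with normexp background correction for PRDX3 (-0.00093). Leaving out 1 calf gave -0.27 to 0.56 for GPX1, -0.039 to 0.031 for PRDX3 and -0.22 to 0.049 for PRDX5. The cause was not tested. The number of probes at an unadjusted p under 0.05 was 1427 with normexp, 464 within slide row 2 and 429 to 935 when 1 calf was left out, the lowest without calf 24. Without the replicate block (calf) it was 785, and the smallest adjusted p of a member was 0.631; the pairing changed no adjusted call, but the unadjusted p of PRDX6 was 0.167 in limma without the block. The number of members with a lower mean ran from 6 to 9, while the share of all probes with a lower mean ran from 25.9% to 70.5%. Each member has 1 probe, so the choice of probe changes nothing. GPX3 has no value when probes must be above background on all 8 arrays. Of the related genes the sign turned for GLRX (0.051) and TFRC (0.16) within slide row 1, FTH1 (-0.048) and MSRB1 (-0.37) within row 2, FTH1 (-0.096), MSRB1 (-0.079) and NFE2L2 (-0.075) with median scaling, FTH1 (-0.070) with quantile scaling, TFRC (0.026) with normexp and MSRB1 when 1 calf was left out (-0.024 to 0.26); these alternatives were chosen after seeing the data. Leaving out 1 calf gave -0.26 to -0.075 for PRDX4, -0.26 to -0.0020 for TFRC, -0.24 to -0.0053 for SOD2, 0.074 to 0.24 for FTH1, 0.15 to 0.45 for SCLY, 0.23 to 0.59 for SESN1, 0.087 to 0.20 for NFE2L2, 0.36 to 1.28 for GPX7 and -1.46 to -0.30 for HMOX1.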

Other observations

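Some genes of the glutathione and peroxide system varied widely between calves, with values chosen after they were seen. GCLC, the catalytic subunit of the enzyme that starts glutathione synthesis, gave 0.10, -0.85, 0.43 and 1.82 in calves 21, 23, 24 and 25, on a probe with signals from 8.37 to 32.8 that was well above background on 4 control and 3 WP arrays. TXN, thioredoxin itself, gave -0.095, 0.14, -0.67 and -0.53. NOXA1, an activator of NADPH oxidase 1, was the 1 related gene higher on WP at an unadjusted p under 0.05, at 0.51 with an adjusted p of 0.658 in limma. NOX1, the oxidase that it activates, did not pass the filter on dim probes.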
